A study of Mus musculus with 12 samples.

Results

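Prostaglandin synthesis and reception were followed through 10 genes in bone marrow-derived macrophages (BMDMs) of the mouse, phagocytes that are grown in a dish from marrow precursors. The genes were taken by symbol for their place in the pathway, and they are 10 of the 23847 rows in each deposited expression table. They are the phospholipase Pla2g4a, the cyclooxygenases Ptgs1 and Ptgs2, the PGE synthases Ptges, Ptges2 and Ptges3, the terminal synthases Hpgds and Tbxas1, and the PGE2 receptors Ptger2 and Ptger4. Messenger RNA was sequenced from 12 samples of wild-type C57BL/6 cells, 3 in each of 4 groups, to ask how earlier IL-4 exposure alters the response to LPS. The mice were 8 to 12 weeks old, and marrow cells of every group were differentiated for 6 days with L929 supernatant as the source of MCSF. Control cells were left without further treatment. The IL-4 group received the cytokine at 20 ng/ml for 24 h. The LPS group received bacterial lipopolysaccharide at 100 ng/ml for 3 h, and the IL-4+LPS group was given IL-4 for 24 h before LPS for 3 h. The labels do not say which animal gave which sample, so the p-values below measure only the spread between these samples.

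Cytosolic phospholipase A2 releases arachidonic acid from membrane lipids, the cyclooxygenases turn it into PGH2, and terminal synthases turn PGH2 into PGE2, PGD2 or thromboxane. Ptgs1 is generally known as the constitutive cyclooxygenase and Ptgs2 as the inducible one, and macrophages exposed to LPS are a classical source of PGE2. PGE2 acts back on macrophages through the receptors EP2 and EP4, which raise cAMP.

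Expression is given as FPKM, fragments per kilobase of transcript relative to all mapped fragments of a sample, so levels of different genes can be set side by side per length. FPKM totals per sample lay between 457583 and 495025, and depth relative to control replicate 1 ran from 0.992 to 3.3. All 7 macrophage markers fixed as a list were expressed in every sample, and their summed level was 19302 to 20692 FPKM in control, 7570 to 7784 in IL-4, 16728 to 17765 with LPS and 6838 to 7133 with IL-4+LPS. That sum was carried by Lyz2, with means of 16116 FPKM in control and 4873 in IL-4. In the same 2 groups Emr1 had 1003 and 454, Mertk 31.9 and 11.3, Cd14 153 and 15.6, and Csf1r 909 and 629. Cd68 had 1779 and 1538 and Itgam 234 and 165. By limma 6 of the 7 markers were lower in IL-4 than in control and 0 higher, beside 21.0% and 16.0% of all genes. Markers of mast cells and basophils, other known sites of Hpgds, summed to at most 2.26 FPKM, with Fcer1a, Ms4a2 and Tpsb2 under 0.1 in every sample. The platelet list, fixed because platelets are a known site of Ptgs1 and Tbxas1, summed to 97.6 to 502 FPKM and was carried by Pf4, while Gp9 stayed at or below 0.863 and Itga2b at or below 1.06. Its sum was lower in IL-4, at 97.6 to 108 FPKM, than in control, at 304 to 442 FPKM, and its part in the levels of Ptgs1 and Tbxas1 was not tested. Of the genes used to check the treatments, Arg1, Retnla and Mrc1 all passed as higher in IL-4 and Tnf, Il1b and Cxcl10 as higher in LPS, each against control. Lists for T and B cells, dendritic cells and stroma summed to at most 0.314, 3.51 and 3.55 FPKM.

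Of the 10 genes, 9 passed the test for LPS against control, 8 for IL-4 against control, 9 for LPS after IL-4 against IL-4 alone, and 5 for IL-4+LPS against LPS. The test was limma on log2(FPKM + 1), two-sided, with Benjamini-Hochberg adjustment over 11191 genes and a threshold of 0.05. Over all genes tested, 74.6%, 37.0%, 72.9% and 30.9% passed in these 4 comparisons. In LPS against control 5 of the 10 rose and 4 fell, where 16.9% of all genes rose and 57.7% fell. In IL-4 against control 6 rose and 2 fell, against 16.0% and 21.0% of all genes. After IL-4, LPS raised 4 and lowered 5, against 15.0% and 57.9%. In IL-4+LPS against LPS 2 were higher and 3 lower, against 15.0% and 15.8% of all genes. The median size of a difference over the 10, regardless of sign, was 1.07, 0.92, 1.57 and 0.49 on the log2 scale in the 4 comparisons, beside 0.63, 0.26, 0.57 and 0.23 over all genes.

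The median gene was lower with LPS. The median difference over all genes was -0.44 for LPS against control and -0.41 for IL-4+LPS against IL-4, and scaling the samples to a common median moved these to -0.14 and -0.12. That scaling changed the number of genes called higher and lower from 1887 and 6462 to 2966 and 4454 without IL-4, and from 1682 and 6474 to 2629 and 4057 after it. Quantile normalization gave 2903 and 4326 without IL-4, and 2461 and 4173 after it. Relative to the median of all genes, LPS against control was -0.68 for Ptgs1, -1.23 for Hpgds, -0.58 for Tbxas1, -0.25 for Ptger2 and 0.37 for Ptges2. Since these are bulk samples, fewer cells of a type and less RNA per cell cannot be told apart.

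In control the mean level per length ran from 0.532 ± 0.46 FPKM for Ptgs2 and 0.865 ± 0.14 for Ptges, whose samples overlapped, to 52.1 ± 14.4 for Hpgds and 87.4 ± 6.33 for Tbxas1 (SD, n = 3). With LPS, Ptgs2 was first of the 10 at 330 ± 133 FPKM and Ptgs1 last at 0.991 ± 0.107 (SD, n = 3).

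**Figure D1:**
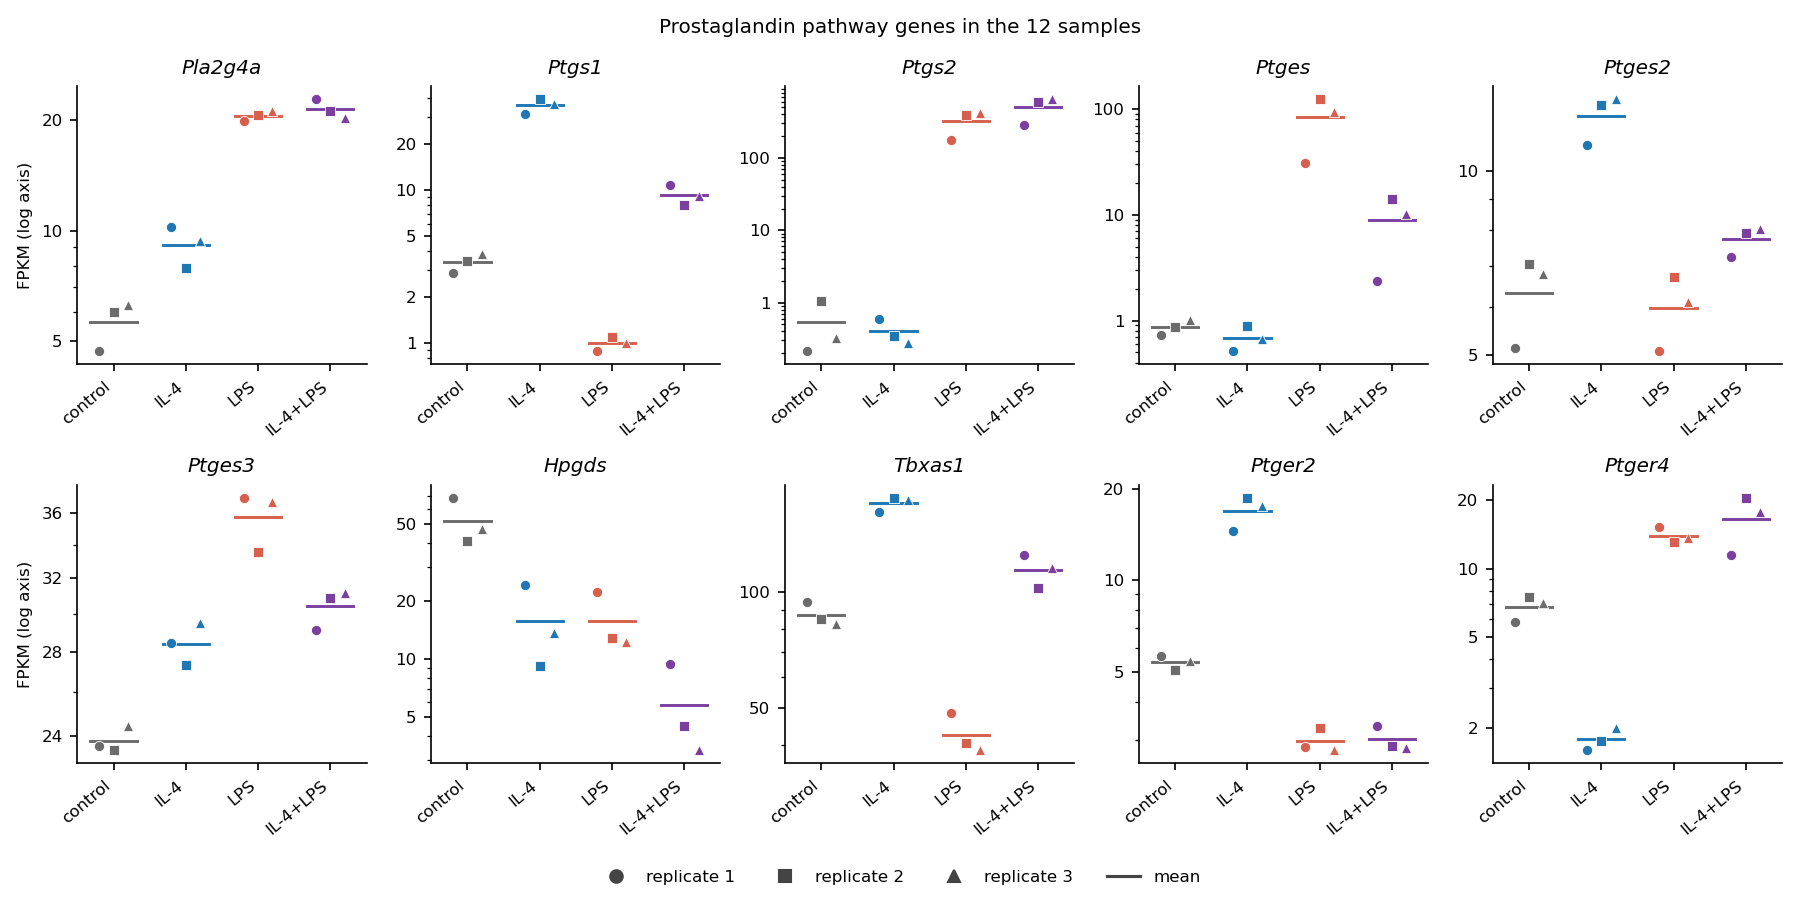
FPKM of the 10 genes in each of the 12 samples on a log axis, with a separate scale for each gene. Marker shape gives the replicate number and the line gives the mean of 3 samples. Ptgs2 and Ptges were near 1 FPKM or lower without LPS, and Ptgs1 was highest in the IL-4 samples, at 31.3 to 39.5 FPKM.

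Pla2g4a, the cytosolic phospholipase that supplies arachidonic acid, lies on the minus strand of chromosome 1 (mm10, 149829622 to 149961284). It read 4.69, 5.98 and 6.28 FPKM in control, 10.2, 7.91 and 9.34 in IL-4, 19.9, 20.6 and 21.2 with LPS, and 22.9, 21.1 and 20.2 with IL-4+LPS. All IL-4 samples were above all control samples, and both LPS groups were above every sample without LPS. LPS raised it 3.64-fold in mean level, a log2 difference of 1.70 ± 0.11 (SE; limma, adjusted p = 2.76e-07), and IL-4 alone raised it 1.62-fold, by 0.61 ± 0.11 (limma, adjusted p = 0.00158). The samples of the 2 LPS groups overlapped, and the difference of 0.05 had a 95% interval of -0.19 to 0.30 (limma, adjusted p = 0.757).

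The 2 cyclooxygenases moved in opposite directions with LPS, Ptgs2 up and Ptgs1 down, and with IL-4 Ptgs1 rose while Ptgs2 did not pass the test. Ptgs1 lies on the plus strand of chromosome 2 (36230426 to 36252269) and Ptgs2 on the plus strand of chromosome 1 (150100124 to 150108012). Windows of 300 bases around the RefSeq start sites of all 10 genes (250 before and 50 after, GRCm38.p6, the assembly behind mm10) were searched on both strands for the letters of a CRE half-site (TGACGT), C/EBP (TTNNGCAA), NF-kB (GGGA followed after 3 bases by TCC), STAT6, the factor that IL-4 activates (TTC followed after 4 bases by GAA), EGR (GCGNGGGCG) and the TATA box (TATAAA). Among 32851 such windows, 7.51%, 10.8%, 4.59%, 6.95%, 5.55% and 13.6% held them, in the order named. The stretches before the start sites of the genes with the largest responses to LPS are shown 5′ to 3′, with matches in capitals, Ptgs2 at chr1:150099781-150100030 on the plus strand and Ptges at chr2:30903298-30903547 on the minus strand.
Ptgs2: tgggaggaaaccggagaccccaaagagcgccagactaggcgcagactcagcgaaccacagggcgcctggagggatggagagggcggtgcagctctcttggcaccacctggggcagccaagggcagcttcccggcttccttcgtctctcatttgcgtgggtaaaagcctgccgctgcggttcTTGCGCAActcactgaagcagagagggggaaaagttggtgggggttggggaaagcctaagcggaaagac
Ptges: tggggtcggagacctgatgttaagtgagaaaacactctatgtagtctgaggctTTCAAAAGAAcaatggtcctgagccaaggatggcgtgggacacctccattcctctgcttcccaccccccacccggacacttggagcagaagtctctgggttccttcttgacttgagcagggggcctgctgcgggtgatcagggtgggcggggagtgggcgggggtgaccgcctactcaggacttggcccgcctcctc
In Ptgs2 the capitals are the C/EBP letters, 69 bases before the RefSeq start, and a CRE half-site on the minus strand (ACGTCA on the plus strand, chr1:150100043-150100048) began at base 13 after that start, past the stretch shown. The RefSeq start of Ptgs2 lies 93 bases upstream of the start in the deposited tables. In Ptges the capitals are the STAT6 letters, 197 bases before the start. The C/EBP letters were also in the windows of Hpgds, 176 bases before the start, and of Ptger2, on the minus strand from base 40 after it. The NF-kB and EGR letters were in none of the 10 windows, and the windows of Pla2g4a, Ptgs1, Ptges2, Ptges3 and Ptger4 held none of the 6 motifs. A match is a description of the letters only, and the absence of one says nothing about the factor.

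Ptgs2 was near 1 FPKM or lower without LPS, at 0.211, 1.06 and 0.326 FPKM in control and 0.595, 0.344 and 0.279 in IL-4. It read 177, 391 and 422 FPKM with LPS and 290, 591 and 662 with IL-4+LPS. Every sample given LPS was above every sample without it, and replicate 1 was the lowest of the 3 in both LPS groups. The log2 difference for LPS against control was 7.70 ± 0.38 (limma, adjusted p = 4.34e-08), rank 6 of 11191 genes, and after IL-4 it was 8.44 ± 0.38 (limma, adjusted p = 2.51e-08), rank 7. In mean FPKM this was 620-fold and 1270-fold, against denominators of 0.532 ± 0.46 and 0.406 ± 0.167 (SD, n = 3). IL-4 alone gave -0.09 with a 95% interval of -0.93 to 0.75 (limma, adjusted p = 0.881). The 2 LPS groups overlapped, with means of 330 ± 133 and 514 ± 198 FPKM (SD, n = 3) and a difference of 0.65 (95% interval -0.19 to 1.49, limma, adjusted p = 0.227). Without replicate 1 of IL-4+LPS that difference was 1.02 (adjusted p = 0.0499), and with replicates 2 and 3 alone it was 0.62 (adjusted p = 0.0361).

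Ptgs1 was highest in the IL-4 samples. It read 2.84, 3.42 and 3.81 FPKM in control, 31.3, 39.5 and 36.3 in IL-4, 0.878, 1.09 and 1.00 with LPS, and 10.7, 8.02 and 9.16 with IL-4+LPS. No 2 of the 4 groups overlapped, and IL-4+LPS stood above control though below IL-4. IL-4 raised it 10.6-fold in mean level, by 3.07 ± 0.12 on the log2 scale (limma, adjusted p = 6.01e-08), rank 37 of 11191. LPS lowered it 3.39-fold without IL-4, a log2 difference of -1.12 ± 0.12 (limma, adjusted p = 1.21e-05), and 3.84-fold after it, a difference of -1.83 ± 0.12 (limma, adjusted p = 4.4e-07). It was 9.38-fold higher in IL-4+LPS than in LPS, a difference of 2.36 ± 0.12 (limma, adjusted p = 3.98e-07). Exons of Ptgs1 overlap 148 bases of Gm43621 on the opposite strand, and since no step that keeps strand is described, reads of the 2 cannot be told apart there.

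As a share of summed cyclooxygenase FPKM, Ptgs2 was 12.8% ± 9.4 in control, 1.16% ± 0.607 in IL-4, 99.7% ± 0.138 with LPS and 97.9% ± 1.28 with IL-4+LPS (SD, n = 3). The control share was uneven, at 6.90%, 23.7% and 7.89%, with replicate 2 the highest. The IL-4 samples, at 1.86%, 0.865% and 0.763%, were all below the control samples.

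Among the PGE synthases, the inducible microsomal enzyme Ptges (chromosome 2, minus strand, 30889471 to 30903297) was the one with a large LPS response, and the size of that response differed with IL-4. It read 0.724, 0.868 and 1.00 FPKM in control and 0.510, 0.897 and 0.666 in IL-4. It read 31.0, 126 and 94.7 FPKM with LPS and 2.39, 14.0 and 10.2 with IL-4+LPS. The lowest LPS sample was still above the highest IL-4+LPS sample, and replicate 1 was again the lowest of each LPS-treated group. LPS raised Ptges by 5.29 ± 0.56 (limma, adjusted p = 9.89e-06), 97.0-fold in mean level, and after IL-4 by 2.30 ± 0.56 (limma, adjusted p = 0.00372), 12.9-fold. IL-4+LPS was 9.45-fold below LPS, a difference of -3.14 ± 0.56 (limma, adjusted p = 0.00184), which was the change ranked 18 from the lowest of 11191 genes. IL-4 alone gave -0.15 with an interval of -1.39 to 1.10 (limma, adjusted p = 0.871).

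Ptges2 and Ptges3, the other PGE synthases, changed far less. Ptges2 (chromosome 2, plus strand, 32395890 to 32402740) ran from 5.13 to 7.05 FPKM in control, 11.0 to 13.1 in IL-4, 5.07 to 6.71 with LPS and 7.25 to 8.05 with IL-4+LPS. The IL-4 samples were above all others. IL-4 raised it by 0.87 ± 0.12 (limma, adjusted p = 0.000382), and LPS after IL-4 lowered it, with a difference of -0.61 ± 0.12 (limma, adjusted p = 0.0012). The call for LPS after IL-4 was lost with median scaling (-0.28, adjusted p = 0.0732) and quantile normalization (-0.24, adjusted p = 0.143). LPS against control gave -0.07 (95% interval -0.34 to 0.21, limma, adjusted p = 0.624), which became 0.25 (adjusted p = 0.0947) with median scaling and 0.40 (adjusted p = 0.021) with quantile normalization. Between the 2 LPS groups, whose ranges did not overlap, Ptges2 differed by 0.33 (95% interval 0.06 to 0.61, limma, adjusted p = 0.0657), and this passed with median scaling (0.35, adjusted p = 0.0478), without control replicate 1 (0.33, adjusted p = 0.0329) and with a replicate block (adjusted p = 0.00322).

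Ptges3, the cytosolic PGE synthase also known as the co-chaperone p23 (chromosome 10, plus strand, 128058982 to 128077254), held 23.4 to 24.4 FPKM in control, 27.3 to 29.5 in IL-4, 33.6 to 37.1 with LPS and 29.1 to 31.2 with IL-4+LPS. LPS raised it by 0.57 ± 0.06 (limma, adjusted p = 1.05e-05) and IL-4 by 0.25 ± 0.06 (limma, adjusted p = 0.00995). After IL-4 the LPS difference was 0.09 (95% interval -0.04 to 0.23, limma, adjusted p = 0.183), and it passed with quantile normalization (0.22, adjusted p = 0.0133) and median scaling (0.45, adjusted p = 0.000152). IL-4+LPS was below LPS, at -0.23 ± 0.06 (limma, adjusted p = 0.0163), a call lost without LPS replicate 1 (-0.20, adjusted p = 0.05) or 3 (-0.21, adjusted p = 0.0603), and with only the compared groups (adjusted p = 0.0555) or replicates 2 and 3 (-0.17, adjusted p = 0.057). Of the 50-base words in its longest transcript, 22.2% are shared with Ptges3-ps or Gm11893, so its level is uncertain.

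Ptges made up 2.78% ± 0.327 of summed PGE synthase FPKM in control and 1.67% ± 0.468 in IL-4 (SD, n = 3). In LPS it made up 42.4%, 75.8% and 68.8%, and in IL-4+LPS 6.16%, 26.6% and 20.7%. Every LPS sample was above every IL-4+LPS sample. Ptges3 held the largest share in the other 3 groups, at 76.9% ± 2.85 in control, 68.6% ± 2.34 in IL-4 and 65.6% ± 8.63 in IL-4+LPS, and 32.5% ± 16.1 in LPS (SD, n = 3).

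**Figure D2:**
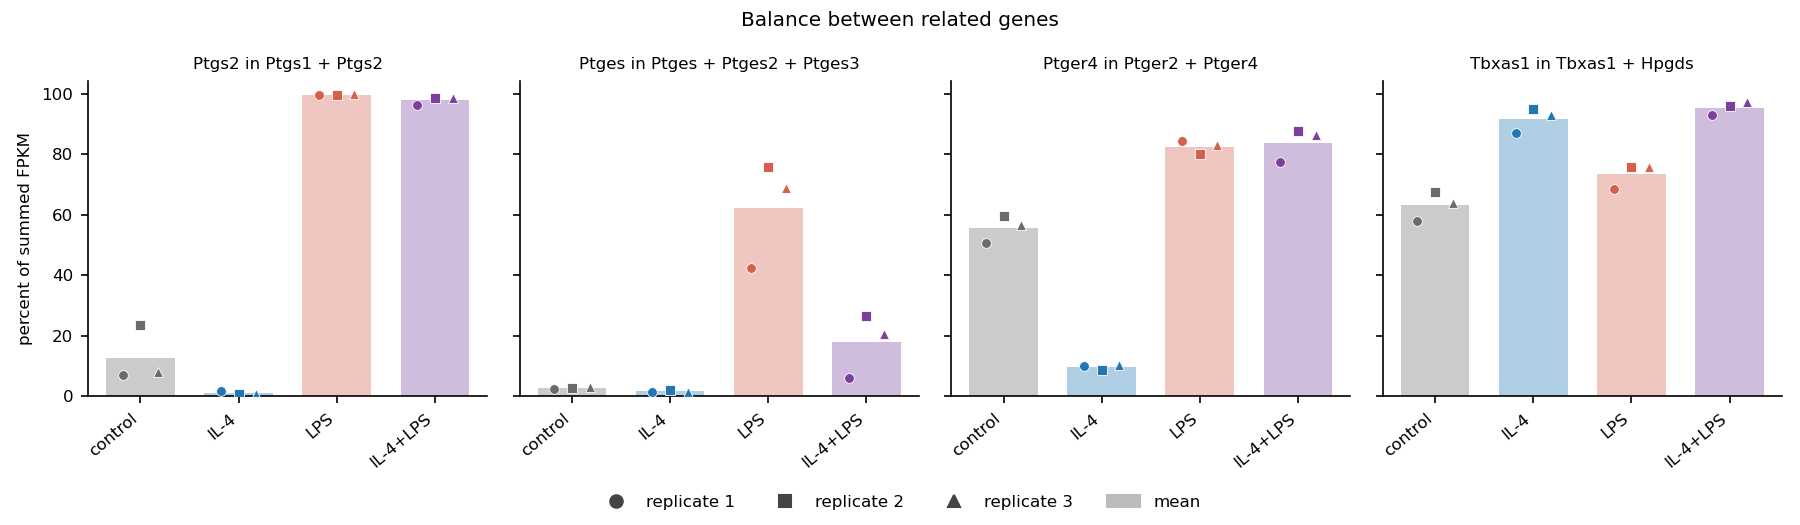
Share of 1 gene in the summed FPKM of related genes, in percent, for the 4 groups. Bars are means of 3 samples and points are the samples, with marker shape for the replicate number. Ptgs2 made up 96.4% or more of cyclooxygenase FPKM in every LPS-treated sample, whereas Ptges made up 62.3% of PGE synthase FPKM with LPS and 17.8% with IL-4+LPS.

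The 2 remaining synthases responded to IL-4 in opposite directions. Tbxas1, thromboxane A synthase (chromosome 6, plus strand, 38918986 to 39084579), read 94.5, 85.0 and 82.6 FPKM in control, 162, 177 and 174 in IL-4, 48.5, 40.5 and 38.7 with LPS, and 125, 103 and 116 with IL-4+LPS. No 2 groups overlapped, and IL-4+LPS lay above control. IL-4 raised it by 0.96 ± 0.10 (limma, adjusted p = 4.58e-05), LPS lowered it, at -1.02 ± 0.10 (limma, adjusted p = 5.46e-06), and IL-4+LPS was above LPS by 1.41 ± 0.10 (limma, adjusted p = 3.34e-06). LPS after IL-4 gave -0.58 ± 0.10 (limma, adjusted p = 0.00041), or -0.17 relative to the median of all genes, and with median scaling this was -0.22 (adjusted p = 0.0692). The promoter of Tbxas1 is shown because it held the STAT6 letters, 121 bases before the start, and overlapping TATA box matches on both strands 11 and 13 bases before it (chr6:38918736-38918985, plus strand, matches in capitals). Mean level in IL-4 was 1.96-fold that of control for Tbxas1. It was 10.6-fold for Ptgs1 and 3.13-fold for Ptger2, whose windows lacked the STAT6 letters. Ptges, whose window held them, did not pass for IL-4 against control, with means of 0.691 and 0.865 FPKM, where a fall is hard to see. In IL-4+LPS against LPS its difference was -3.14. A part of STAT6 in any of these levels was not tested.
Tbxas1: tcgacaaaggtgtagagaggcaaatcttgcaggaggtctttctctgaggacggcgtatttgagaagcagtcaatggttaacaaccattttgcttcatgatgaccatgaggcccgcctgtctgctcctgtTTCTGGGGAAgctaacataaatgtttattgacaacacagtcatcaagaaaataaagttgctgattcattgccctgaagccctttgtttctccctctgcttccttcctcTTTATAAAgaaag

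Hpgds, the hematopoietic PGD2 synthase (chromosome 6, minus strand, 65117293 to 65144730), read 68.4, 41.0 and 46.8 FPKM in control and 24.2, 9.25 and 13.6 in IL-4. It read 22.4, 12.8 and 12.3 FPKM with LPS and 9.46, 4.50 and 3.38 with IL-4+LPS. Control samples were above all others, and replicate 1 was the highest of its group in all 4 groups. IL-4 lowered it 3.32-fold, a log2 difference of -1.74 ± 0.39 (limma, adjusted p = 0.00633), and LPS 3.29-fold, a difference of -1.67 ± 0.39 (limma, adjusted p = 0.00279). The step from IL-4 to IL-4+LPS was -1.30 ± 0.39 (limma, adjusted p = 0.0124) although the samples of the 2 groups overlapped, and IL-4+LPS against LPS was -1.36 ± 0.39 (limma, adjusted p = 0.0242). The former lost its call without IL-4 replicate 1 (-0.95, adjusted p = 0.052) or IL-4+LPS replicate 3 (-1.04, adjusted p = 0.0539), and with quantile normalization, median scaling and the Tukey test, and the latter without LPS replicate 1 (-1.10, adjusted p = 0.086), IL-4+LPS replicate 2 (-1.26, adjusted p = 0.0779) or 3 (-1.10, adjusted p = 0.0935), and with only the compared groups or the Tukey test. The IL-4 effect alone did not pass with a per-gene Tukey test (adjusted p = 0.0781).

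In summed FPKM of the 2 synthases, Tbxas1 made up 63.1% ± 4.75 in control, 91.6% ± 4.11 in IL-4, 73.4% ± 4.32 with LPS and 95.3% ± 2.14 with IL-4+LPS (SD, n = 3). Each sample that had received IL-4 was at 87.0% or higher, and each that had not was at 75.9% or lower.

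Of the PGE2 receptors, Ptger2 and Ptger4, the pair that couples to cAMP, moved in opposite directions with IL-4 and with LPS. Ptger2, which encodes EP2 (chromosome 14, plus strand, 44988111 to 45003820), read 5.67, 5.10 and 5.43 FPKM in control, 14.5, 18.7 and 17.5 in IL-4, 2.85, 3.28 and 2.77 with LPS, and 3.34, 2.87 and 2.83 with IL-4+LPS. IL-4 samples were the highest, and the 2 LPS groups overlapped below control. IL-4 raised it 3.13-fold, by 1.48 ± 0.10 (limma, adjusted p = 2.29e-06), and LPS after IL-4 lowered it 5.61-fold, a difference of -2.15 ± 0.10 (limma, adjusted p = 3.46e-08). LPS alone gave -0.69 ± 0.10 (limma, adjusted p = 9.96e-05), which with quantile normalization was -0.13 (adjusted p = 0.238). The 2 LPS groups differed by 0.02 (95% interval -0.21 to 0.24, limma, adjusted p = 0.928). Exons of Ptger2 overlap those of Gm49364 and Gm17173 on the opposite strand, where reads cannot be told apart.

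Ptger4, which encodes EP4 (chromosome 15, minus strand, 5233404 to 5243831), read 5.81, 7.53 and 7.05 FPKM in control and 1.59, 1.76 and 1.99 in IL-4. It read 15.2, 13.1 and 13.6 FPKM with LPS and 11.5, 20.5 and 17.7 with IL-4+LPS. IL-4 samples were the lowest and the 2 LPS groups overlapped above control. IL-4 lowered it 3.82-fold, a log2 difference of -1.48 ± 0.17 (limma, adjusted p = 0.000107). LPS raised it 2.05-fold without IL-4, by 0.94 ± 0.17 (limma, adjusted p = 0.000559), and 9.30-fold after it, by 2.62 ± 0.17 (limma, adjusted p = 4.15e-07). The 2 LPS groups differed by 0.20 (95% interval -0.19 to 0.59, limma, adjusted p = 0.435), a difference that passed without IL-4+LPS replicate 1 (0.43, adjusted p = 0.0211) and with replicates 2 and 3 alone (0.48, adjusted p = 0.00436).

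Between these 2 receptors, Ptger4 had its lowest share in IL-4. It made up 55.6% ± 4.55 of the summed FPKM of both receptors in control, 9.57% ± 0.855 in IL-4, 82.4% ± 2.23 with LPS and 83.8% ± 5.53 with IL-4+LPS (SD, n = 3). The IL-4 samples held 8.60% to 10.2%, below the lowest control sample at 50.6%, and the LPS and IL-4+LPS samples overlapped.

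**Figure D3:**
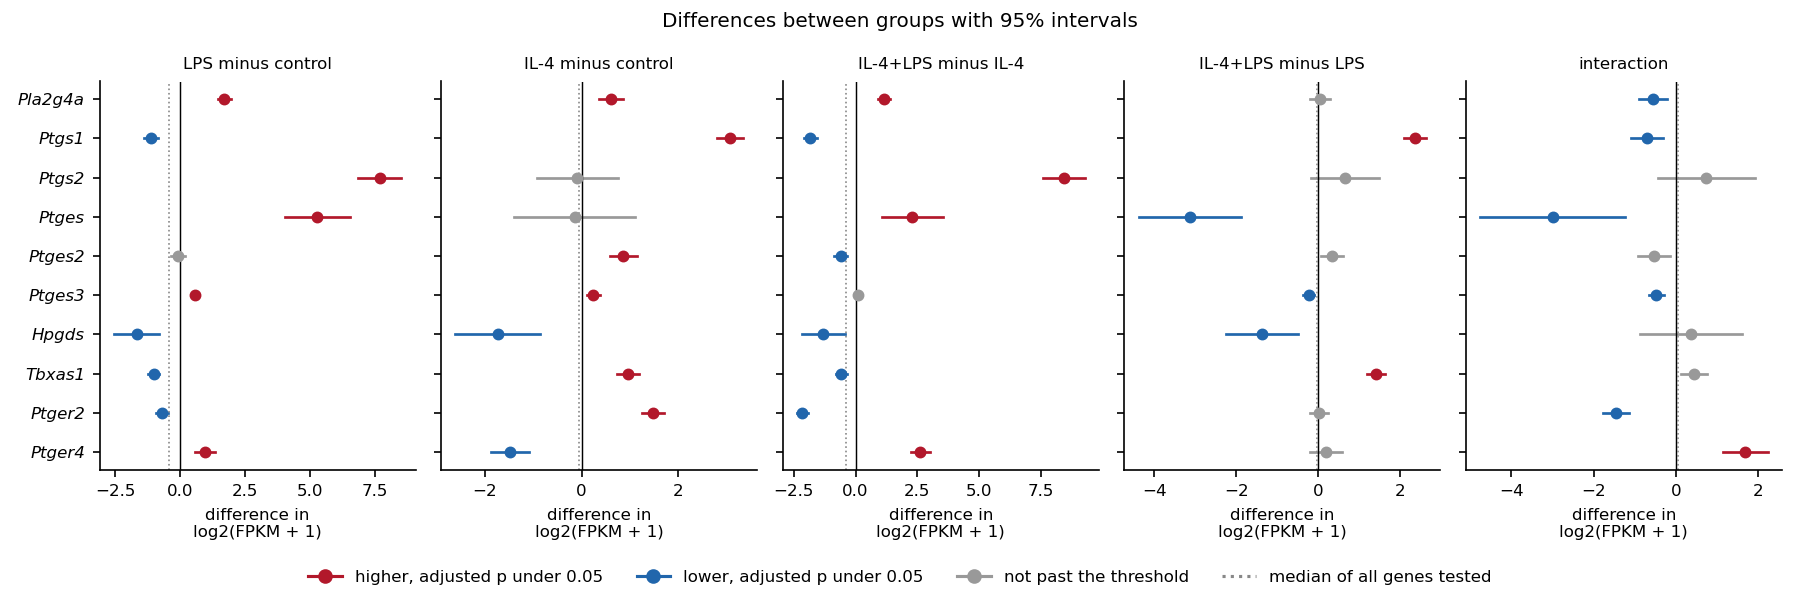
Differences between groups in log2(FPKM + 1) for the 10 genes, 1 panel per comparison, as limma estimates with 95% intervals. Red and blue mark genes higher and lower at an adjusted p under 0.05, and the dotted line is the median of all 11191 genes. Ptgs2 lies at 7.70 and 8.44 in the 2 LPS panels, and Ptges at -3.14 in IL-4+LPS against LPS.

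The response to LPS after IL-4 was then set against the response without it by testing the difference of the 2 responses (the interaction). It passed for 6 of the 10 genes, 1 higher and 5 lower, where 9.20% of all genes passed, 4.58% higher and 4.63% lower. Ptger4 rose more with LPS after IL-4, with an interaction of 1.68 ± 0.25 (limma, adjusted p = 0.00209). Ptger2 fell more after IL-4, at -1.46 ± 0.14 (limma, adjusted p = 0.000229). Ptges3 rose less, at -0.47 ± 0.09 (limma, adjusted p = 0.00677). These 3 calls held whichever sample was left out.

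The interactions of Ptges (-2.99 ± 0.80, limma, adjusted p = 0.0422), Ptgs1 (-0.71 ± 0.17, limma, adjusted p = 0.0296) and Pla2g4a (-0.56 ± 0.15, limma, adjusted p = 0.0491) lay nearer the threshold. They passed with replicates 2 and 3 alone (adjusted p = 0.000674, 0.00411 and 0.0303). In that fit the interaction passed as higher for 1481 and as lower for 1386 of all 11191 genes, beside 512 and 518 in the main fit. The call of Ptges was lost on a log2(FPKM + 0.1) scale (limma, adjusted p = 0.0698) and without the expression filter (limma, adjusted p = 0.0639). That of Pla2g4a was lost with both changes (limma, adjusted p = 0.0534 and 0.0602) and without the intensity trend (limma, adjusted p = 0.0518). Leaving out 1 sample at a time ended the call of Ptges in 9 of 12 fits, with values of -3.59 to -2.34 and adjusted p of 0.00883 to 0.105, and it passed only without LPS replicate 1, IL-4+LPS replicate 1 or IL-4+LPS replicate 2. That of Ptgs1 ended in 8 fits (-0.81 to -0.62, adjusted p 0.0139 to 0.0774) and passed only without control replicate 3 or without replicate 1 of IL-4, LPS or IL-4+LPS. That of Pla2g4a ended in 10 fits (-0.65 to -0.45, adjusted p 0.0318 to 0.114) and passed only without IL-4 replicate 2 or IL-4+LPS replicate 1. On a log2(FPKM + 0.1) scale the interaction of Ptgs1 was -0.27 (adjusted p = 0.507), where its folds in mean level were 3.39 without IL-4 and 3.84 after it. For Ptgs2, Ptges2, Hpgds and Tbxas1 the interaction did not pass, with values of 0.74 (95% interval -0.44 to 1.92, adjusted p = 0.455), -0.54 (adjusted p = 0.0858), 0.37 (adjusted p = 0.746) and 0.45 (adjusted p = 0.0795). Without LPS replicate 1 the interactions of Ptges2 (-0.63, adjusted p = 0.0431) and Tbxas1 (0.54, adjusted p = 0.0239) passed. With replicates 2 and 3 alone those of Ptgs2 (0.96, adjusted p = 0.0449), Ptges2 (-0.54, adjusted p = 0.00592) and Tbxas1 (0.38, adjusted p = 0.0235) passed. The IL-4 samples are the baseline of 1 of the responses and also enter the comparison of IL-4 with control, so the values of those comparisons are not independent.

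**Figure D4:**
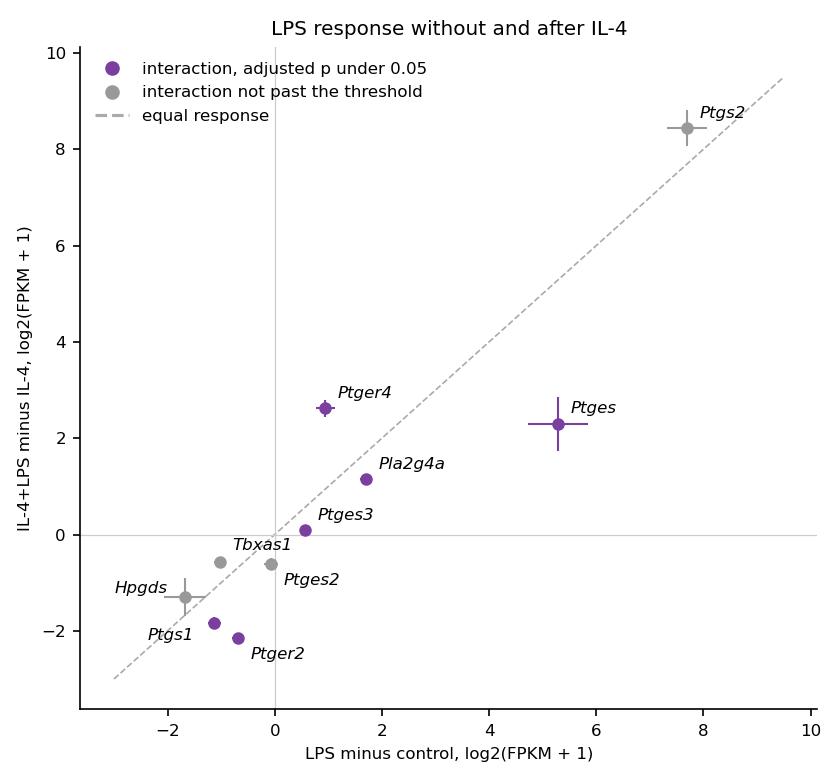
Log2 differences of the 10 genes for LPS against control (horizontal) and for IL-4+LPS against IL-4 (vertical), with standard errors as bars. The dashed line marks equal responses and purple marks an interaction past the threshold. Ptges lies below the line at 5.29 and 2.30, and Ptger4 above it at 0.94 and 2.62.

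Replicate number 1 stood apart in some of the genes. Ptgs2 and Ptges were lowest in replicate 1 of both LPS-treated groups, and Hpgds was highest in replicate 1 of all 4 groups. The summed neutrophil markers (5 of 6 listed, carried by S100a8 and S100a9, with Elane, Mpo and Camp at 1.52 to 41.0 FPKM) were also lowest in replicate 1 of each group. They summed to 314, 839 and 599 FPKM in control, 213, 397 and 274 in IL-4, 501, 1016 and 836 with LPS, and 420, 836 and 585 with IL-4+LPS. Their part in the spread of Ptgs2, Ptges and Hpgds was not tested. With replicates 2 and 3 alone, 5 of the 10 genes were called higher and 4 lower in LPS against control. In that fit 2178 of all 11191 genes were called higher and 7032 lower. Ptges in IL-4+LPS against LPS was -3.09 with replicates 2 and 3 alone (limma, adjusted p = 3.99e-05).

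**Figure D5:**
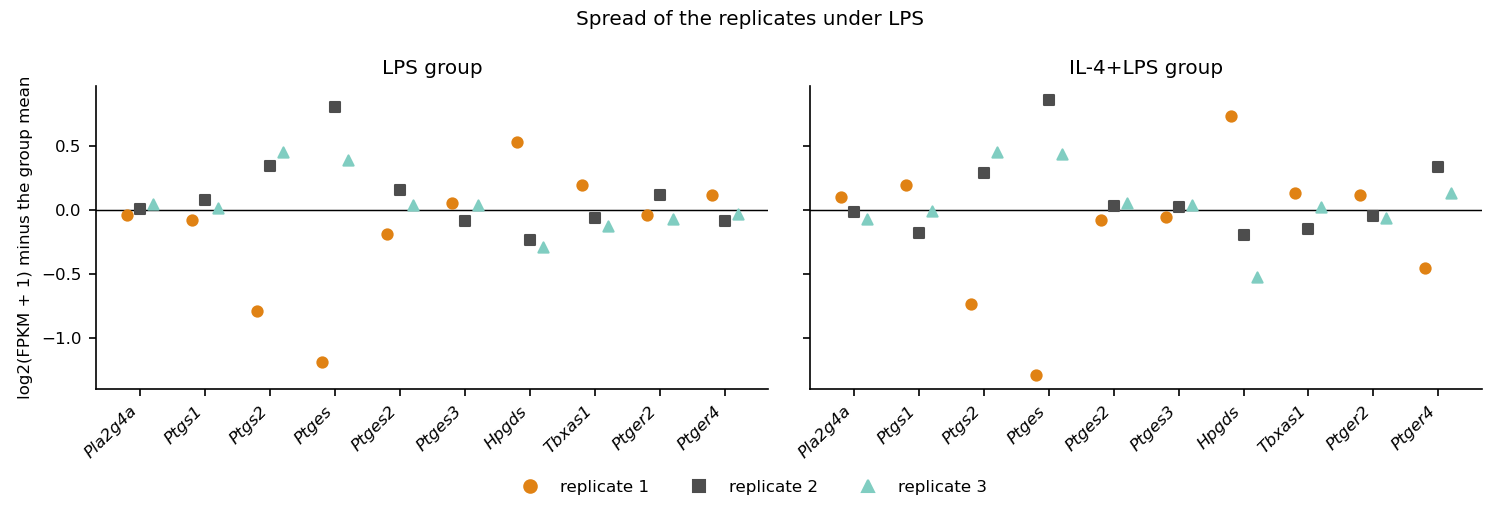
Each sample's log2(FPKM + 1) minus the mean of its group, for the 10 genes in the LPS group (left) and the IL-4+LPS group (right). Replicate 1 lies furthest below the mean for Ptges and Ptgs2 in both groups and above it for Hpgds.

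The rest of the pathway was covered by 5 lists with 61 genes, of which 39 passed the expression filter. LPS raised 2 and lowered 28 of the 39, and 9 did not pass, beside 16.9% and 57.7% of all genes. IL-4 raised 7 and lowered 12, beside 16.0% and 21.0% of all genes. LPS after IL-4 raised 3 and lowered 29, beside 15.0% and 57.9%. In IL-4+LPS against LPS 8 were higher and 7 lower, beside 15.0% and 15.8%, and the interaction had 3 higher and 1 lower, beside 4.58% and 4.63%. Of the 9 tested genes on the list for arachidonate supply, IL-4 raised 6 and lowered none, with a median log2 difference of 0.59 beside -0.05 for all genes, and LPS lowered 7 and raised none. The list holds phospholipases and lipases and also Acsl4 and Lpcat3, which put fatty acids into lipids, and Lpcat3 is in both counts, with 0.64 ± 0.13 in IL-4 (limma, adjusted p = 0.00289) and -0.38 ± 0.13 in LPS (limma, adjusted p = 0.0172). Daglb, a diacylglycerol lipase, rose with IL-4 by 1.19 ± 0.11 (limma, adjusted p = 1.34e-05) and fell with LPS, at -2.12 ± 0.11 (limma, adjusted p = 4.53e-08). Pla2g15, a lysosomal phospholipase, fell with LPS, at -2.39 ± 0.10 (limma, adjusted p = 1.64e-08).

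Of the 8 genes on the list for export, uptake and breakdown, 7 were tested. The list also holds Ggt5 and Dpep2, which are not enzymes of prostaglandin breakdown. Hpgd, which encodes the dehydrogenase that inactivates prostaglandins, read 35.5, 28.7 and 27.4 FPKM in control and 3.98, 2.41 and 2.17 in IL-4. The groups did not overlap, and IL-4 lowered it, at -3.05 ± 0.17 (limma, adjusted p = 7.11e-07). It read 9.94, 7.68 and 7.40 FPKM with LPS and 0.830, 0.866 and 0.667 with IL-4+LPS, a difference of -2.38 ± 0.17 between these 2 (limma, adjusted p = 3.75e-06). Zadh2, a prostaglandin reductase, rose with LPS after IL-4 by 0.40 ± 0.08 (limma, adjusted p = 0.00141). Dpep2, a dipeptidase, rose with LPS by 0.25 ± 0.07 without IL-4 (limma, adjusted p = 0.00721) and by 0.335 ± 0.07 after it (limma, adjusted p = 0.00134).

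Of the 8 genes on the list of remaining receptors, 3 were tested, Ptger1, Ptgir and Ptgfrn, and 5 were below 1 FPKM in all samples. Ptgfrn is a regulator of the PGF2 alpha receptor and not itself a prostanoid receptor. Ptger1, which encodes the PGE2 receptor EP1 and is named here after its values were seen, held 32.3 ± 4.12 FPKM in control, 25.2 ± 2.46 in IL-4, 10.3 ± 0.694 with LPS and 8.36 ± 1.08 with IL-4+LPS (SD, n = 3). Its difference was -1.55 ± 0.12 for LPS against control (limma, adjusted p = 8.86e-07) and -0.34 ± 0.12 for IL-4 against control (limma, adjusted p = 0.0432). The level of Ptger1 is uncertain, since no step that keeps strand is described. Ptgir, the prostacyclin receptor, rose with IL-4 by 1.41 ± 0.22 (limma, adjusted p = 0.000669), from 6.93 ± 0.465 to 20.1 ± 1.16 FPKM (SD, n = 3), and its interaction was -1.20 ± 0.31 (limma, adjusted p = 0.0379). Of 15 tested genes of cAMP signalling, LPS lowered 13 and raised 1, where 57.7% of all genes fell and 16.9% rose, with a median of -1.02 beside -0.44 for all genes. IL-4 lowered 7 and raised none, where 21.0% fell and 16.0% rose. The gene that rose with LPS was Pde4b, a cAMP phosphodiesterase, by 3.89 ± 0.15 (limma, adjusted p = 9.59e-09) without IL-4 and 4.20 ± 0.15 (limma, adjusted p = 6.15e-09) after it. Of the 5 tested terminal synthases outside the 10 genes, LPS lowered 2 and IL-4 lowered 2, and none rose.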

How the data were processed

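Per the labels, libraries were made with a TruSeq RNA kit from poly-A RNA, and the submitters' processing notes name TopHat2 2.0.7, Cufflinks 2.0.2 and the mm10 assembly. The authors deposited 1 table of FPKM values per sample, with replicates kept apart. The gene annotation used was not given in the sources used here. The LPS dose is that of the labels, and the study's methods give it in a molar unit. Fragment counts were not used here, so the absolute depth is unknown, and relative depth was read from the steps between low values.

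Each table held 23847 rows for 23361 symbols. A row entered the tests when 1 or more of the 12 samples reached an FPKM of 1 (11191 rows), and all 10 genes entered. This filter takes the highest sample, so genes silent in 3 groups can enter through the fourth. Values were transformed to log2(FPKM + 1), a scale on which changes at low FPKM come out too small. With limma 3.58.1 in R 4.3.3, the 4 group means were estimated in 1 fit of the 12 samples (eBayes with an intensity trend), and Benjamini-Hochberg adjustment of the p-values ran over all 11191 rows in each of 5 contrasts, at a threshold of 0.05. Shares and folds in mean level were computed on FPKM. The script was tested on simulated data.

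The genes, lists and tests were chosen with earlier results of these data known. Every one of the 10 genes is named in each comparison, and from the 5 other lists at most the 2 that rose most and the 2 that fell most. Values of Lpcat3, Ptger1 and of Dpep2 after IL-4 are given beyond these. For Ptgs1, Ptgs2 and Ptges the 3 genes with the most alike group means were also named. Coordinates are those of the deposited tables, counted from 1, and strands come from GENCODE vM21. Promoter windows matched for 10 of 10 genes in the RefSeq table.

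The alternatives were a pseudocount of 0.1, no filter, a filter of 1 FPKM in 3 samples, quantile normalization, median scaling, no intensity trend, only the compared groups, the replicate number as a block, a per-gene Tukey test, replicates 2 and 3 only, and each sample left out in turn. Python 3.11.15 with matplotlib 3.10.9 drew the figures.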

Additional observations from a re-analysis of the deposited data

Results flagged for a closer look

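The response to LPS after IL-4 differed from the response without it, by limma's interaction term with Benjamini-Hochberg adjustment, in 6 of the 10 genes, where 9.20% of all genes passed. On the log2 scale the response after IL-4 minus the response without it was -1.46 for Ptger2, which fell from 16.9 to 3.01 FPKM after IL-4 and from 5.40 to 2.97 FPKM without it. It was 1.68 for Ptger4, which rose from 1.78 to 16.6 FPKM after IL-4 and from 6.80 to 13.9 FPKM without it. It was -0.47 for Ptges3, which read 28.4 and 30.4 FPKM after IL-4 and rose from 23.8 to 35.8 FPKM without it. IL-4+LPS against LPS was lower for Ptges3 and did not pass for either receptor with all samples, though it passed for Ptger4 with replicates 2 and 3 alone (0.48, adjusted p = 0.00436).

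The difference was -2.99 for Ptges, which rose from 0.691 to 8.88 FPKM after IL-4 and from 0.865 to 83.9 FPKM without it. It was -0.71 for Ptgs1, which fell from 35.7 to 9.30 FPKM after IL-4 and from 3.36 to 0.991 FPKM without it. These falls of Ptgs1 were 3.84-fold and 3.39-fold in mean level. On a log2(FPKM + 0.1) scale its difference was -0.27 and did not pass (limma, adjusted p = 0.507). The difference was -0.56 for Pla2g4a, which rose from 9.16 to 21.4 FPKM after IL-4 and from 5.65 to 20.6 FPKM without it. Each level is a mean of 3 samples. When single samples were left out, the calls of Ptges, Ptgs1 and Pla2g4a were lost in 9, 8 and 10 of 12 fits, and those of Ptger2, Ptger4 and Ptges3 in none.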

How the results depend on the processing

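Across 50 results for the genes and their alternatives, 1000 of 1080 values kept the direction and the side of the threshold, 52 lost the call, 17 gained it and 11 changed sign, and 28 of the 50 results kept both under every alternative. The sign changed for Ptges2 in LPS against control (0.40 with quantile normalization, 0.25 with median scaling, and -0.192 to 0.026 over fits without single samples), for IL-4 against control in Ptges (0.012 with quantile normalization) and Ptgs2 (-0.24 to 0.14 without single samples), and for IL-4+LPS against LPS with replicates 2 and 3 only in Pla2g4a (-0.016) and Ptger2 (-0.062, and -0.041 to 0.073 without single samples). The main value had not passed the test in any of these.

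The number of genes called lower became 1 with the Tukey test for IL-4 against control, 3 with quantile normalization and 2 with median scaling for IL-4+LPS against IL-4, and 1 with only the compared groups for IL-4+LPS against LPS, where 5 were higher with replicates 2 and 3 only. Among all genes, those lower went from 2346 to 1334 in the first of these. In the next 2 they went from 6474 to 4173 and 4057. With only the compared groups they went from 1771 to 1290 for IL-4+LPS against LPS. There, those higher went from 1682 to 2351 with replicates 2 and 3 only. Without single samples, IL-4+LPS against LPS ran from 2 to 4 higher and 1 to 3 lower, beside 1327 to 1761 and 1332 to 2064 of all genes. For the interaction 2 were lower with a pseudocount of 0.1 and 3 without the filter, and 3 were higher with replicates 2 and 3 only. Over all genes, 518 were lower in the main fit, 436 with that pseudocount and 550 of 16585 without the filter. Those higher went from 512 to 1481 with replicates 2 and 3 only. Without single samples the interaction ran from 1 to 2 higher and 2 to 5 lower, beside 311 to 624 and 334 to 652 of all genes.

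The labels do not say what a replicate number marks, so equal numbers were not taken as pairing in the main fit. Deviations of same-numbered samples correlated over 0.1 in 11 of 18 pairs, with a mean of 0.124. The mean was -0.06 for samples of other numbers in other groups, and 7 of 12 samples matched best with their own number. Some likeness of same-numbered samples is therefore left out of the main fit. Over all genes, a replicate block moved the interaction calls from 512 higher and 518 lower to 1145 and 1095. With the replicate block, 2 genes had a higher interaction, Ptges2 in IL-4+LPS against LPS (0.33, adjusted p = 0.00322), the interaction of Ptges2 (-0.54, adjusted p = 0.00529) and that of Tbxas1 (0.45, adjusted p = 0.0329) passed, and no other call changed. Depth of single samples differs by up to 3.3 times, which limits the low values of Ptgs2 and Ptges without LPS.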

Other observations

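The genes with group means most like those of 3 of the genes were looked for among 11190 other genes. Likeness was the root mean square difference in the 4 group means of log2(FPKM + 1) after each profile was centred on its own mean. It is a description over 4 group means and says nothing of shared control. For Ptgs1, which was highest in IL-4, the nearest were Irf4 (0.12), a transcription factor, Batf3 (0.22), a transcription factor, and Flrt2 (0.23). Irf4 had means of 1.36 FPKM in control, 19.9 in IL-4, 0.129 with LPS and 3.75 with IL-4+LPS.

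For Ptgs2 the nearest were the chemokine Cxcl3 (0.095), the cytokine subunit Il27 (0.098) and the chemokine Cxcl1 (0.16). Cxcl3 had means of 0.626 FPKM in control, 0.504 in IL-4, 315 with LPS and 654 with IL-4+LPS. For Ptges they were the serpin Serpinb2 (0.30), the acute phase gene Saa1 (0.34) and the interleukin-1 receptor antagonist Il1rn (0.42). Their lower means with IL-4+LPS than with LPS alone come with the choice by likeness to Ptges. Il1rn had means of 258 FPKM with LPS and 39.6 with IL-4+LPS.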
